A study of Mus musculus with 8 samples.

Results

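The genes described here encode the secreted and membrane-bound proteases that cut the extracellular matrix, together with the inhibitors that hold them in check. They were taken by symbol from the count tables, as every gene named *Mmp*, *Adamts* or *Timp* followed by its number, by a rule that uses no measured value. This gave 46 of the 26263 genes counted, of which 23 were *Mmp*, 19 *Adamts* and 4 *Timp* genes. RNA was sequenced from hybrid male mouse embryonic stem cells (ESCs) and from neural precursor cells (NPCs) after 12 days of *in vitro* corticogenesis. Cells were B/J (line BJE2, C57BL/6 x JF1) or J/B (line JBE6, the reciprocal JF1 x C57BL/6), with 2 libraries in each of the 4 groups. ESCs were kept on gelatin in a medium with LIF, BMP4 and a GSK3-β inhibitor, and NPCs on Matrigel in a defined medium with B27 lacking vitamin A and with dorsomorphin homolog 1, a BMP pathway blocker. The labels name no mutation or transgene in any group. Each cross was represented by a single line, so cross and line cannot be told apart. The labels do not say whether the libraries of a group came from separate cultures, so p-values measure only the spread between these samples.

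Matrix metalloproteinases (MMPs) are zinc-dependent endopeptidases made as latent precursors, which become active when their propeptide is removed, often by plasmin, furin or another MMP. The ADAMTS proteases share the zinc-dependent catalytic fold but carry thrombospondin repeats, which direct them to proteoglycans, procollagens and microfibrils. Tissue inhibitors of metalloproteinases (TIMPs) occupy the active site of these enzymes, and TIMP3 also inhibits several ADAMTS proteases. In the developing brain, such enzymes remodel the versican-rich matrix and the basement membranes around the neuroepithelium and its vessels.

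The libraries held 22537138 to 32706015 reads counted on genes. Levels are given in CPM, a gene's reads relative to the library's total, after TMM normalization, a scaling that sets the libraries' sizes so that most genes balance, and 1 count was worth 0.0256 to 0.0533 CPM. All 8 pluripotency markers fell from ESCs to NPCs, and their summed level went from 5297 to 8890 CPM in the ESC libraries to 81.7 to 292 CPM in the NPC libraries. Of the 7 neural precursor markers, 6 rose, and *Pax6* did not pass the test (log2 fold change 1.77, edgeR adjusted p = 0.0606). Markers of other cells moved as well. All 10 trophoblast markers rose, with a summed level of 15.1 to 88.8 CPM in ESCs and 1006 to 2872 CPM in NPCs, and of these *Tpbpa*, *Prl3d1* and *Prl2c2* had 0 counts in ESCs and none was at 0 in NPCs. Most of this sum in every NPC library was *Krt8* and *Krt18*, keratins of simple epithelia in general. Of the 10 fibroblast and mesenchyme markers 9 rose, with sums of 13.1 to 86.8 CPM in ESCs and 800 to 1946 CPM in NPCs. None was at 0 over a whole stage, but *Lum* and *Dcn* had only 4 and 5 counts in ESCs. *Col1a2*, *Col3a1* and *Postn* were at 0 CPM in ESC B/J replicate 1. Of the 7 blood and macrophage markers, 2 were tested, *Csf1r*, which rose, and *Cd68*, which fell, while the globin genes *Hba-a1* and *Hbb-bt* had 0 counts in every library. The part of these other cells in the changes below was not tested. In bulk RNA, fewer cells of a type and less RNA per cell cannot be told apart.

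Most matrix protease genes rose between ESCs and NPCs. Of the 46 genes, 37 had enough counts to be tested, and 27 of them rose, 4 fell and 6 did not pass the test over both crosses. The median log2 fold change of the 37 was 2.70, also with *Mmp1a*, which had no ESC counts, set at its lower bound, against 0.17 for all 16399 genes tested. Among all those genes, 37.5% were called higher in NPCs and 31.9% lower (edgeR quasi-likelihood test, adjusted p under 0.05), whereas 73% of the tested members were higher and 10.8% lower. The NPC libraries lay entirely above the ESC libraries in 25 tested members, or 67.6%, against 35.3% of all genes tested, and entirely below in 3, against 31.2%. The filter on low counts let 9 members through only because of their NPC libraries. They were *Adamts5*, *Adamts12*, *Adamts13*, *Adamts16*, *Adamts18*, *Adamts20*, *Mmp16*, *Mmp1a* and *Mmp1b*. These could hardly be called anything but higher, and all 9 were. The counts above, and those by role and within each cross below, include these 9. Of the 28 members that reached the minimum in at least 2 ESC libraries, 18 rose and 4 fell, beside 29.7% and 37.9% of the 13814 genes that met the same condition. Their median log2 fold change was 1.95, against -0.15 for those genes. The number that fell was 2 when libraries were scaled by their totals or to *Gapdh*, *Gusb* and *Tbp*, and also without ESC B/J replicate 1, ESC J/B replicate 1, NPC B/J replicate 1, NPC B/J replicate 2 or NPC J/B replicate 1.

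**Figure D1:**
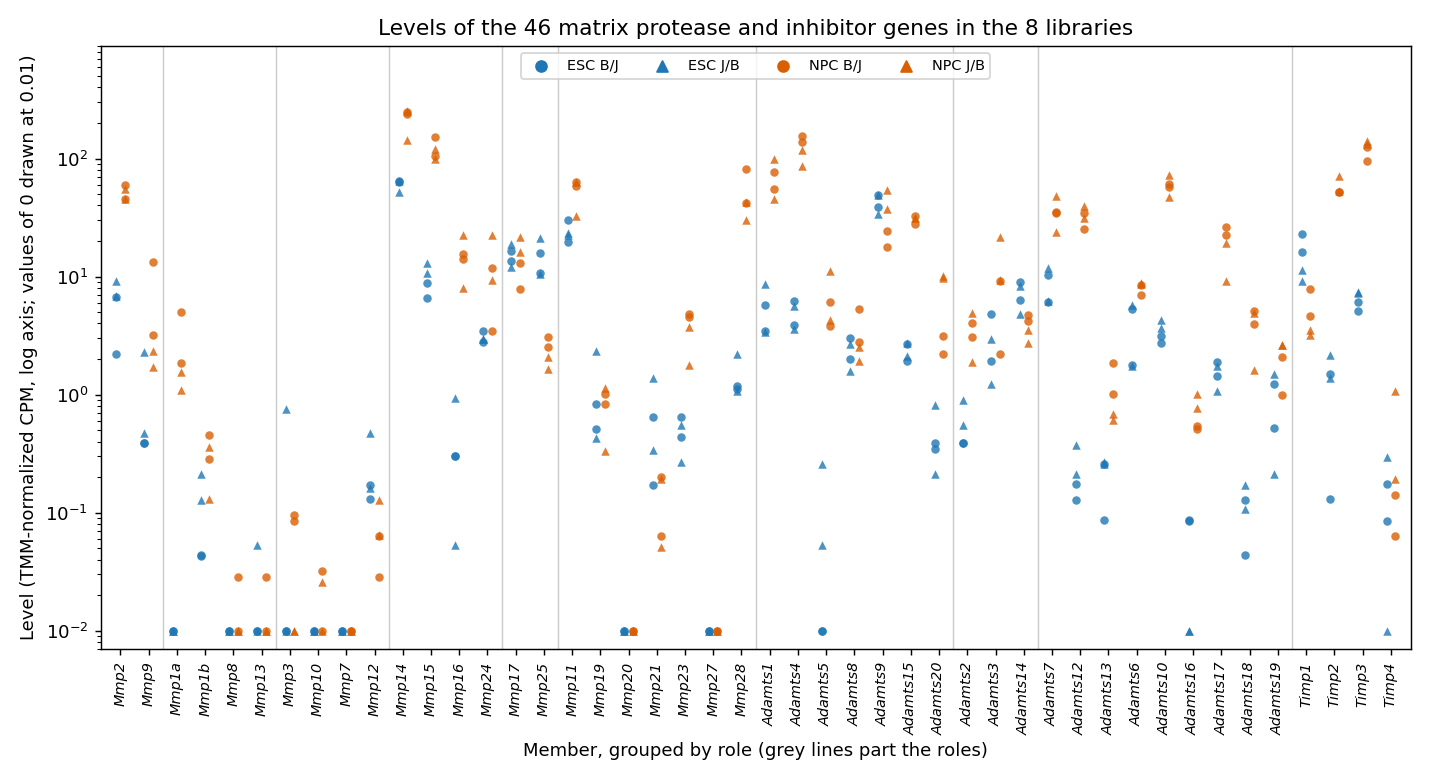
Level of each of the 46 genes in each of the 8 libraries, in TMM-normalized CPM on a log axis, with ESCs in blue, NPCs in orange, circles for B/J and triangles for J/B, and with values of 0 drawn at 0.01. The NPC points lie above the ESC points in 25 tested members, *Mmp14* has the highest NPC level at 251 CPM, and *Mmp7*, *Mmp20* and *Mmp27* lie at 0 throughout.

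Summed over all members, the level was 251, 249, 244 and 253 CPM in the ESC libraries and 1255, 1189, 981 and 1341 CPM in the NPC libraries, always in the order B/J replicates 1 and 2, then J/B replicates 1 and 2. The ESC libraries were thus close to each other, and the NPC libraries were all higher and more spread, with J/B replicate 1 the lowest. By family, the *Mmp* sum went from 139 ± 4.84 CPM (SD, n = 4) to 551 ± 87.9 CPM (SD, n = 4), a ratio of 3.95. The *Adamts* sum went from 87.2 ± 2.03 to 454 ± 79.5 CPM (SD, n = 4 each), a ratio of 5.21. The *Timp* sum went from 22.8 ± 4.24 to 187 ± 24.8 CPM (SD, n = 4 each), a ratio of 8.19. In each family, the ESC and NPC sums did not overlap. The *Timp* ratio was 3.5 per kb of exon and 3.81 without *Timp3*, the *Timp* gene with the highest mean over the 8 libraries.

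**Figure D2:**
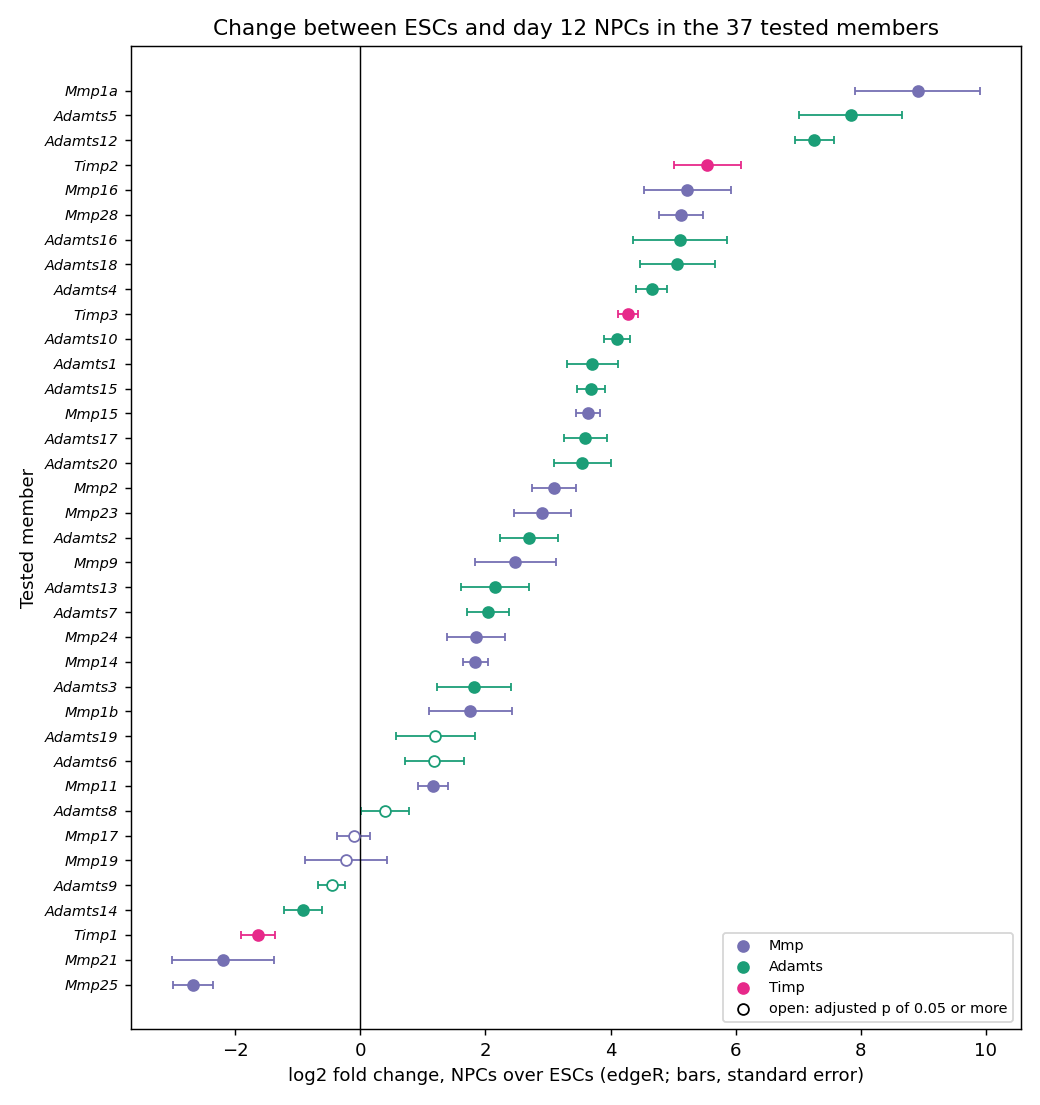
log2 fold change between NPCs and ESCs over both crosses for the 37 tested members, with the standard error as bars, colour for the family and open circles for an adjusted p of 0.05 or more. The values run from -2.67 for *Mmp25* to 8.91 for *Mmp1a*, with 27 filled circles to the right of 0 and 4 to the left, and the *Mmp1a* value rests on 0 ESC counts.

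The transmembrane membrane-type MMPs, which cut matrix and activate other MMPs at the cell surface, all rose, 4 of 4, where 37.5% of all genes did. Of these, *Mmp16* passed the filter only through its NPC libraries. *Mmp14* encodes the enzyme that activates pro-MMP2 at the cell surface together with TIMP2. Its level was 63.3, 64.9, 51.6 and 64.6 CPM in the ESC libraries and 239, 248, 144 and 251 CPM in the NPC libraries. The groups did not overlap, and *Mmp14* was 3.59-fold higher in NPCs (log2 fold change 1.84, SE 0.193, edgeR adjusted p = 0.000114). *Mmp15* encodes a close relative of it. *Mmp15* stood at 6.64, 8.76, 12.9 and 10.8 CPM in ESCs and at 152, 105, 120 and 100 CPM in NPCs, with every NPC library far above every ESC library and a log2 fold change of 3.64 (SE 0.195, edgeR adjusted p = 1.36e-05). *Mmp16* was nearly silent in ESCs, at 0.304, 0.299, 0.0533 and 0.938 CPM, and reached 15.4, 14.2, 8.06 and 22.3 CPM in NPCs. Its log2 fold change was 5.23 (SE 0.692, edgeR adjusted p = 0.000361), and 6.83 without the highest ESC library, J/B replicate 2. *Mmp24*, an enzyme best known from neurons, ranged from 2.78 to 3.43 CPM in ESCs and from 3.45 to 22.4 CPM in NPCs (log2 fold change 1.85, edgeR adjusted p = 0.00784). With a replicate block within each stage its log2 fold change was 0.85 (edgeR adjusted p = 0.04). The lowest NPC library of *Mmp24*, B/J replicate 1, was just above the highest ESC library.

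The GPI-anchored membrane-type MMPs did not share this rise. *Mmp25*, known from leukocytes, was measured at 10.8, 15.7, 10.6 and 21.1 CPM in ESCs and at 3.08, 2.52, 1.64 and 2.07 CPM in NPCs. The groups were well apart, and *Mmp25* fell by 2.67 on the log2 scale (SE 0.32, edgeR adjusted p = 0.000213), the strongest fall among the members. *Mmp17* overlapped between the stages, with 12.1 to 18.8 CPM in ESCs and 7.8 to 21.5 CPM in NPCs (log2 fold change -0.11, edgeR adjusted p = 0.72), and its sign changed with library scaling.

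Both gelatinases, which digest denatured collagen and the type IV collagen of basement membranes, rose. *Mmp2* ranged from 2.21 to 9.17 CPM in ESCs and from 45.2 to 59.1 CPM in NPCs, without overlap (log2 fold change 3.10, edgeR adjusted p = 0.000165). *Mmp9* is given with all its values because single libraries stood apart, a choice made after they were seen. Its level was 0.391, 0.385, 2.29 and 0.469 CPM in ESCs and 13.2, 3.19, 1.71 and 2.36 CPM in NPCs, so that ESC J/B replicate 1 overlapped the NPC range and NPC B/J replicate 1 stood far above it. The log2 fold change of *Mmp9* was 2.48 (SE 0.649, edgeR adjusted p = 0.00991), 1.79 without NPC B/J replicate 1 (adjusted p = 0.0409) and 3.25 without ESC J/B replicate 1 (adjusted p = 0.00398).

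The interstitial collagenases cleave native fibrillar collagen, and mice carry *Mmp1a* and *Mmp1b* as counterparts of a single human gene. *Mmp1a* had 0 counts in all 4 ESC libraries, which allows up to 0.0338 CPM over the group (3 counts), and 5.01, 1.85, 1.56 and 1.1 CPM in NPCs. It was thus at least 71.2-fold higher in NPCs (edgeR adjusted p = 0.000534), or at least 44.6-fold without NPC B/J replicate 1. *Mmp1b* was barely detected, with at most 0.213 CPM in ESCs and 0.456 CPM in NPCs, and the groups overlapped. Its call (log2 fold change 1.76, edgeR adjusted p = 0.0448) was lost when any 1 of the 8 libraries was left out, with values of 1.29 to 2.03. The pair is similar in sequence, so reads could be split between the genes, and *Mmp1b* also shares 157 bases of exon with *Mmp12* on the opposite strand. Whether the counting used the strand was not stated.

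A row of *Mmp* genes on chromosome 9 was almost silent in both stages. These 10 genes, *Mmp13*, *Mmp12*, *Mmp1b*, *Mmp3*, *Mmp1a*, *Mmp10*, *Mmp8*, *Mmp27*, *Mmp20* and *Mmp7*, span 427.1 kb at chr9:7272514-7699587 (GRCm39, GENCODE). They hold the collagenases, the stromelysins *Mmp3* and *Mmp10*, the matrilysin *Mmp7*, the macrophage elastase *Mmp12* and the enamel protease *Mmp20*. Their summed level was 0.174, 0.214, 1.17 and 0.597 CPM in ESCs and 5.64, 2.33, 2.07 and 1.29 CPM in NPCs, most of it from *Mmp1a* in NPCs. Only *Mmp1a* and *Mmp1b* of these 10 genes passed the filter. *Mmp7*, *Mmp20* and *Mmp27* had 0 counts in every library, which allows at most 0.0767 to 0.16 CPM per library (3 counts, counting error only). *Mmp8* had 1 count in all, and *Mmp10* and *Mmp13* had 2 each. *Mmp3* had 20 counts, of which 14 were in ESC J/B replicate 1, and *Mmp12* had 31, with 11 in ESC J/B replicate 2. The ESC library with the *Mmp3* counts was also the ESC library with the highest sum of fibroblast and mesenchyme markers, 86.8 CPM against at most 17.7 CPM in the others, and the part of such cells in the *Mmp3* counts was not tested.

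Genes of this cluster are known for an AP-1 element, a site for FOS and JUN dimers, close to their start. The motif TGANTCA, which reads the same on both strands, was searched in the 250 bases upstream of the canonical transcript start of each gene. It was found in 8 of the 10 clustered genes, in 3 of the 13 other *Mmp* genes, in 1 of the 19 *Adamts* genes and in 0 of the 4 *Timp* genes, and in 1140 of the 19107 windows of all counted genes, or 5.97%. Of the 27 members that rose, 5 held it, and of the 4 that fell, 0 did. The stretches of 81 bases below show the motif in capitals in 6 clustered genes, in the gelatinase gene *Mmp9* and in *Mmp28*, so that genes that were nearly silent (*Mmp3*, *Mmp10*, *Mmp12*, *Mmp13*) can be set beside genes that rose. They are written 5′ to 3′ on the gene's strand, from the GRCm39 reference.
Mmp1a (chr9:7464031-7464111, plus strand): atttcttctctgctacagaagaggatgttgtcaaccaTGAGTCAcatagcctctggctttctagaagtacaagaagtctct
Mmp1b (chr9:7388076-7388156, minus strand): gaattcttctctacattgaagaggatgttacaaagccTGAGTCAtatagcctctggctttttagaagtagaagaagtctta
Mmp3 (chr9:7445739-7445819, plus strand): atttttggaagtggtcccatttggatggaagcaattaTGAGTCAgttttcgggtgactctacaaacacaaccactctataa
Mmp10 (chr9:7502243-7502323, plus strand): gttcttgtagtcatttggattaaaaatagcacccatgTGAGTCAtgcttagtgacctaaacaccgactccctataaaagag
Mmp12 (chr9:7347293-7347373, plus strand): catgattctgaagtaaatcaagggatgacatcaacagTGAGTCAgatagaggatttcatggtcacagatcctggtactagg
Mmp13 (chr9:7272433-7272513, plus strand): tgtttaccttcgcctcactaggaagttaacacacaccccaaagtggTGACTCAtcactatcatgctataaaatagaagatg
Mmp9 (chr2:164790033-164790113, plus strand): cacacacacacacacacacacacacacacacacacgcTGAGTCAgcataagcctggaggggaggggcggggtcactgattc
Mmp28 (chr11:83354147-83354227, minus strand): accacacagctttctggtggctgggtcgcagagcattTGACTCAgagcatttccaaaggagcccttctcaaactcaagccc
In these windows the motif ended 67 bases before the start of *Mmp1a*, 66 before that of *Mmp1b* and 63 before that of *Mmp9*, against 198 for *Mmp28*. A match of these letters is a description of the sequence, and no binding was measured.

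Among the remaining *Mmp* genes, *Mmp28*, which encodes epilysin, an enzyme of epithelia and neural tissue, had the largest rise. It stood at 1.17, 1.11, 2.19 and 1.07 CPM in ESCs and at 81.3, 41.8, 43.1 and 30.4 CPM in NPCs. Every NPC library was far above the ESC libraries, and B/J replicate 1 was the highest (log2 fold change 5.13, SE 0.353, edgeR adjusted p = 2.65e-05). *Mmp28* shares 969 bases of exon with 1700020L24Rik on the opposite strand. *Mmp11*, stromelysin-3, which furin activates inside the cell, was already abundant in ESCs. Its level was 30.1, 19.8, 22.7 and 23.5 CPM in ESCs and 58.1, 63.5, 32.5 and 62.7 CPM in NPCs. The groups came close at NPC J/B replicate 1 but did not overlap (log2 fold change 1.16, SE 0.241, edgeR adjusted p = 0.0033). *Mmp23*, which encodes an enzyme held in the membrane by its N terminus, ranged from 0.267 to 0.641 CPM in ESCs and from 1.77 to 4.84 CPM in NPCs (log2 fold change 2.91, edgeR adjusted p = 0.000775). *Mmp21*, known for its part in left-right patterning, fell by 2.20 on the log2 scale (edgeR adjusted p = 0.0421), but its ranges overlapped at 0.171 to 1.39 CPM in ESCs and 0.0512 to 0.199 CPM in NPCs. The *Mmp21* call was lost when any of 6 libraries was left out, with log2 fold changes from -1.54 without ESC J/B replicate 1 and -1.57 without ESC B/J replicate 1 to -2.77 without NPC J/B replicate 2, and under library totals (adjusted p = 0.0895). *Mmp19*, a protease with basement membrane substrates, did not pass the test (log2 fold change -0.23, edgeR adjusted p = 0.771), and its sign changed with library scaling.

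The proteoglycanases of the *Adamts* family cut aggrecan, versican and related proteoglycans, and 5 of the 7 rose, where 37.5% of all genes did. Among those that rose, *Adamts5* and *Adamts20* passed the filter only through their NPC libraries, so they could hardly be called lower. *Adamts4* was the most abundant of the family in NPCs. Its level was 3.91, 6.24, 3.57 and 5.63 CPM in ESCs and 137, 154, 87 and 118 CPM in NPCs, with the groups far apart and a 25.2-fold rise (log2 fold change 4.66, SE 0.247, edgeR adjusted p = 1.34e-05). *Adamts5*, the other main aggrecanase, had 0, 0, 0.0533 and 0.256 CPM in ESCs and 6.12, 3.83, 4.32 and 11.2 CPM in NPCs. Only J/B ESC libraries had any count of it, the groups did not overlap, and *Adamts5* rose (edgeR adjusted p = 0.000204), with an 82.3-fold ratio of the mean CPM. Its fitted log2 fold change of 7.84 includes the B/J ESCs, which had 0 counts. It was 6.64 with limma-voom and 8.63 with edgeR without ESC J/B replicate 2. *Adamts1*, a versicanase that lies 53.1 kb from *Adamts5* on chromosome 16, ranged from 3.41 to 8.65 CPM in ESCs and from 45.8 to 99.3 CPM in NPCs (log2 fold change 3.71, edgeR adjusted p = 0.000141). *Adamts15* was even across the NPC libraries, with 27.7 to 32.3 CPM in NPCs against 1.91 to 2.73 CPM in ESCs (log2 fold change 3.69, edgeR adjusted p = 1.66e-05). Its neighbour on chromosome 9, *Adamts8*, at a distance of 19.9 kb, did not pass the test (log2 fold change 0.39, edgeR adjusted p = 0.39).

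*Adamts9* and *Adamts20* encode a related pair of versicanases, and their patterns differed. *Adamts9* was the most abundant *Adamts* gene of ESCs, at 48.8, 39.2, 49.2 and 33.7 CPM, and stood at 17.8, 24.5, 37.1 and 54.2 CPM in NPCs. Both B/J NPC libraries lay below all ESC libraries, while the J/B NPC libraries reached into and beyond the ESC range (log2 fold change over both crosses -0.46, edgeR adjusted p = 0.0859), and the sign changed with library scaling. With a replicate block within each stage, added after seeing the data, *Adamts9* was called lower (log2 fold change -0.93, edgeR adjusted p = 0.00201). *Adamts20* ranged from 0.213 to 0.81 CPM in ESCs and from 2.19 to 10.2 CPM in NPCs (log2 fold change 3.55, edgeR adjusted p = 0.000312), or 4.19 without ESC J/B replicate 2.

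The procollagen N-propeptidases, which trim fibrillar procollagens before fibrils form, moved in different directions. *Adamts14* was measured at 8.94, 6.37, 8.27 and 4.77 CPM in ESCs and at 4.16, 4.69, 2.76 and 3.52 CPM in NPCs. The lowest ESC library was barely above the highest NPC library, and *Adamts14* fell by 0.92 on the log2 scale (SE 0.304, edgeR adjusted p = 0.0263). That call was lost when any of 5 libraries was left out, with log2 fold changes from -0.70 to -0.97. It was also lost under library totals (log2 fold change -0.43, edgeR adjusted p = 0.219). *Adamts2* rose from 0.385 to 0.907 CPM in ESCs to 1.89 to 4.91 CPM in NPCs (log2 fold change 2.70, edgeR adjusted p = 0.00123). *Adamts3*, which also processes the lymphangiogenic factor VEGFC, overlapped between the stages, with 1.23 to 4.83 CPM in ESCs and 2.22 to 21.5 CPM in NPCs. Its rise of 1.82 on the log2 scale (edgeR adjusted p = 0.0249) was lost when any of 4 libraries was left out, with the lowest value, 1.14, without NPC B/J replicate 2 (adjusted p = 0.0981).

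Of the other 9 *Adamts* genes, 7 rose and none fell, where 37.5% of all genes rose and 31.9% fell. Among them, *Adamts12*, *Adamts13*, *Adamts16* and *Adamts18* passed the filter only through their NPC libraries, so they could hardly be called lower. *Adamts12*, which cuts cartilage oligomeric matrix protein, was at 0.174, 0.128, 0.373 and 0.213 CPM in ESCs and at 34.6, 25.4, 31.4 and 39.9 CPM in NPCs. This 154-fold difference (log2 fold change 7.26, SE 0.307, edgeR adjusted p = 9.2e-06) was many times the spread between libraries, but the ESC level rests on 19 counts. Its relative *Adamts7* was expressed in both stages, from 6.03 to 11.9 CPM in ESCs and from 23.8 to 48.2 CPM in NPCs (log2 fold change 2.04, edgeR adjusted p = 0.000965). *Adamts10*, a protease of fibrillin microfibrils, stood at 2.73, 3.16, 3.68 and 4.3 CPM in ESCs and at 61.2, 57.4, 46.9 and 72.3 CPM in NPCs. The groups were far apart (log2 fold change 4.11, SE 0.208, edgeR adjusted p = 1.13e-05). *Adamts18* was at 0.0434, 0.128, 0.107 and 0.17 CPM in ESCs and at 3.93, 5.14, 1.61 and 4.88 CPM in NPCs, without overlap (log2 fold change 5.07, SE 0.6, edgeR adjusted p = 0.0002). *Adamts17*, mutated in a syndrome of lens and connective tissue, rose by 3.60 on the log2 scale (edgeR adjusted p = 7.67e-05). *Adamts16* also rose (edgeR adjusted p = 0.000968), from a mean of 0.0431 CPM to one of 0.713 CPM, a ratio of 16.5. Its fitted log2 fold change of 5.11 includes the J/B ESCs, which had 0 counts, and was 3.79 with limma-voom. *Adamts13*, the plasma protease of von Willebrand factor, rose from at most 0.267 CPM to at most 1.85 CPM (log2 fold change 2.16, edgeR adjusted p = 0.00808). *Adamts6*, close to *Adamts10* in sequence and substrates, and *Adamts19* gave positive values that did not pass (log2 fold change 1.18 and 1.20, edgeR adjusted p = 0.0544 and 0.123). *Adamts6* did pass in 10 alternatives, among them DESeq2 (adjusted p = 0.0226), limma-voom (adjusted p = 0.0198) and library totals (adjusted p = 0.0187), and *Adamts19* in 4.

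The inhibitors changed places. *Timp1*, a secreted inhibitor known to respond to growth factors and cytokines, was the main *Timp* transcript of ESCs, at 23, 16.1, 11.3 and 9.21 CPM, and stood at 7.8, 4.6, 3.17 and 3.49 CPM in NPCs. The ESC libraries were all above the NPC libraries, and the B/J libraries lay above the J/B libraries in both stages, without a call between the crosses. *Timp1* fell by 1.64 on the log2 scale (SE 0.27, edgeR adjusted p = 0.00103). *Timp2*, which inhibits MMPs and also takes part in MMP2 activation by MMP14, had 0.13, 1.5, 1.39 and 2.17 CPM in ESCs and 52.5, 51.6, 53.1 and 71.1 CPM in NPCs. All NPC libraries were far above the ESC libraries, ESC B/J replicate 1 was the lowest, and the rise was 46.9-fold (log2 fold change 5.55, SE 0.541, edgeR adjusted p = 8.83e-05). The log2 fold change was 6.86 without ESC B/J replicate 2. *Timp3*, the inhibitor that binds the matrix and also blocks ADAMTS4 and ADAMTS5, had 5.08, 6.03, 7.31 and 7.37 CPM in ESCs and 96.2, 126, 133 and 142 CPM in NPCs. This 19.4-fold rise had the smallest error of the family (log2 fold change 4.28, SE 0.161, edgeR adjusted p = 9.2e-06). *Timp4* stood at 0.174, 0.0855, 0 and 0.298 CPM in ESCs and at 0.142, 0.0638, 1.07 and 0.194 CPM in NPCs. It was not tested, with 68 counts in all, of which 42 were in NPC J/B replicate 1. Each *Timp* gene except *Timp2* lies within a synapsin gene on the opposite strand, *Timp1* in *Syn1*, *Timp3* in *Syn3* and *Timp4* in *Syn2*. *Timp3* shares 1734 bases of exon with *Syn3*, *Timp4* shares 1142 with *Syn2*, and *Timp1* shares 0 with *Syn1*. *Timp2* shares 332 bases with *Cep295nl* on the same strand. Elsewhere in the families, exon is shared on the opposite strand by *Mmp19* and *Tmem198b* (1084 bases), *Mmp24* and *Mmp24os1* (698), *Mmp11* and *Chchd10* (155), and *Adamts7* and *Tbc1d2b* (122), and such reads could be split or lost.

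**Figure D3:**
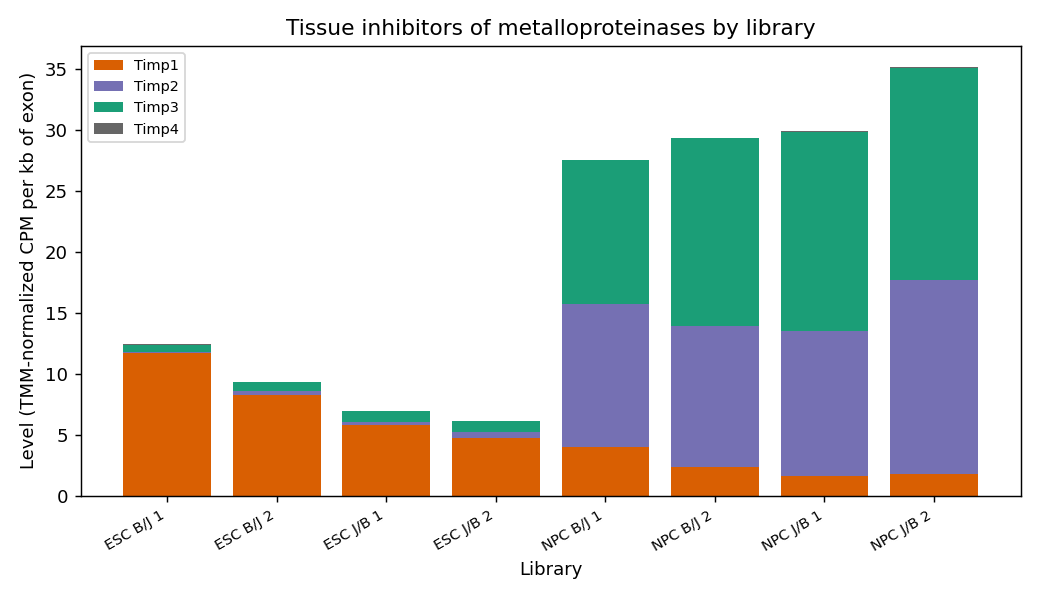
Level of the *Timp* genes in each library, in TMM-normalized CPM per kb of exon, stacked by gene. *Timp1* makes up 76.7% to 94.6% of the ESC bars, and *Timp2* and *Timp3* most of the taller NPC bars.

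Per kb of exon, which allows a rough comparison of genes, *Timp1* made up 94.6%, 88.3%, 82.7% and 76.7% of the *Timp* level in the ESC libraries and 14.5%, 7.98%, 5.4% and 5.07% in the NPC libraries. The exon lengths came from GENCODE and the counts from a refGene-based annotation, so shares and orders per kb are approximate. In NPCs, *Timp3* made up 42.8% to 54.5% and *Timp2* 39.3% to 45.3%. The ratio of the summed *Timp* level to the summed protease level per kb was 0.162 to 0.353 in ESCs and 0.151 to 0.241 in NPCs, so the groups overlapped. *Mmp14* had the highest level per kb of all members in both stages, with 9.91 ± 1.04 CPM per kb in ESCs and 35.7 ± 8.33 CPM per kb in NPCs (SD, n = 4 each), and it made up 28.7% to 40.9% of the *Mmp* level in all 8 libraries. In ESCs it was followed by *Timp1* at 7.62 ± 3.13, *Mmp11* at 6.82 ± 1.24, *Adamts9* at 2.83 ± 0.503 and *Mmp25* at 2.74 ± 0.934 CPM per kb (SD, n = 4 each). The ranges of neighbours in this order overlapped except between *Mmp11* and *Adamts9*. In NPCs the order after *Mmp14* was *Mmp15* at 22.1 ± 4.31, *Adamts4* at 19.2 ± 4.45, *Mmp11* at 15.4 ± 4.16 and *Timp3* at 15.3 ± 2.45 CPM per kb (SD, n = 4 each), each overlapping the next.

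The change between the stages was next taken within each cross. Within B/J, 25 members rose and 3 fell between the stages, beside 30.1% and 25.6% of all genes tested. Within J/B, 24 rose and 2 fell, beside 29.1% and 25.3%. Of the members called, 24 were called in both crosses, all in the same direction. That is 85.7% of the B/J calls and 92.3% of the J/B calls. The same share over all genes was not computed, so these percentages have no background here. Members that passed the filter only through NPC libraries could hardly be called in opposite directions. *Adamts9*, *Adamts13*, *Mmp1b* and *Mmp9* were called only in B/J, and *Adamts3* and *Mmp24* only in J/B. These differences did not pass their own test: the interaction of stage and cross was called for 0 members and 0% of all genes (edgeR), and after adjustment DESeq2 and limma-voom also called 0 members. At an unadjusted p under 0.05 in edgeR there were 4 members, *Adamts9*, *Adamts16*, *Mmp9* and *Mmp15*, which is 10.8% of those tested against 3.49% of all genes. For *Mmp9*, the log2 fold change was 4.39 in B/J (SE 0.992, edgeR adjusted p = 0.00746) and 0.57 in J/B (SE 0.865, adjusted p = 0.594), a difference of -3.82 (SE 1.28, adjusted p = 1). For *Adamts9* it was -1.06 in B/J (edgeR adjusted p = 0.0195) and 0.14 in J/B (adjusted p = 0.708), a difference of 1.19 (SE 0.425, adjusted p = 1). Fitted values of *Mmp1a* in both crosses, of *Adamts5* in B/J and of *Adamts16* in J/B depend on 0 counts in the ESCs of that cross and give no size.

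**Figure D4:**
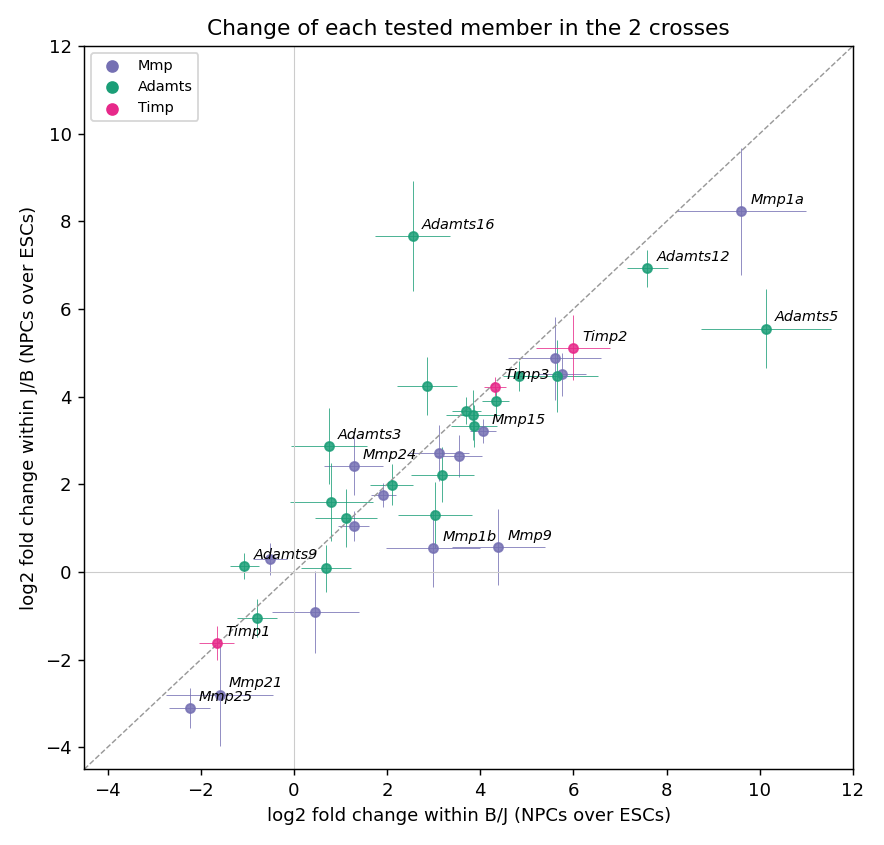
log2 fold change between NPCs and ESCs within J/B against the same within B/J for the 37 tested members, with standard errors as bars and the dashed line where both are equal. *Mmp9* (4.39 in B/J, 0.57 in J/B) lies far from the line, as do *Adamts5* and *Adamts16*, whose fitted values rest on 0 ESC counts in B/J and J/B respectively, and *Timp1* (-1.66 and -1.62) and *Timp3* (4.32 and 4.23) lie on it.

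Between J/B and B/J directly, 0 members were called in ESCs, where 0% of all genes were, and 0 in NPCs, where 0.0061% of all genes were (edgeR). At an unadjusted p under 0.05 there were 4 members in ESCs (10.8% of the 37, against 2.11% of all genes) and 5 in NPCs (13.5%, against 6.4%). Among these members at an unadjusted p under 0.05 were *Timp1* in both stages, *Adamts5*, *Adamts16* and *Mmp15* in ESCs and *Adamts9*, *Adamts20*, *Mmp9* and *Mmp17* in NPCs. In ESCs, *Adamts5* rested on 7 counts, all in J/B, and *Adamts16* on 4 counts, all in B/J. After adjustment, DESeq2 and limma-voom also called 0 members in each stage. The values for *Adamts20* in NPCs were 2.19 and 3.16 CPM in B/J against 10.2 and 9.69 CPM in J/B (log2 fold change 1.89, SE 0.578, edgeR adjusted p = 0.755).

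The NPC libraries were not alike, with a summed level of all members that varied by an SD of 154 CPM against 3.97 CPM in ESCs. Among the 33 tested members with a mean of at least 1 CPM in NPCs, J/B replicate 1 had the lowest level of the 4 libraries in 16, and J/B replicate 2 the highest in 14. J/B replicate 1 also had the lowest sum of fibroblast and mesenchyme markers, 800 CPM against 1437 to 1946 CPM, and members lowest there included *Mmp14*, *Mmp11*, *Mmp16*, *Adamts4* and *Adamts17*. B/J replicate 1 had the highest level in 11 members, such as *Mmp9*, *Mmp1a*, *Mmp28* and *Timp1*, and the highest sum of trophoblast markers, 2872 CPM against 1444, 1536 and 1006 CPM in the others. Most of this was *Krt8*, at 1366 CPM against 675, 748 and 470 CPM, and *Krt18*, at 864 CPM against 488, 447 and 324 CPM. The placental hormone genes on the list were not highest in this library: *Prl3d1* stood at 0.399 CPM against 0.67, 6.91 and 2.87 CPM, and *Prl2c2* at 6.55 CPM against 4.98, 13.6 and 8.98 CPM. The other listed trophoblast markers were all highest there. *Tpbpa* stood at 395 CPM against 157, 235 and 141 CPM, and *Cdx2* at 81.1 CPM against 34.3, 32.4 and 19.3 CPM. *Gata3* (70 CPM), *Hand1* (33 CPM), *Ascl2* (54.3 CPM) and *Elf5* (1.57 CPM) were likewise highest in this library. Its sum of the 7 endothelial markers was also the highest, 820 CPM against 427, 275 and 239 CPM, but most of this was *Cdh5* alone, at 772 CPM against 385, 256 and 210 CPM. Its sum of the neural precursor markers was the lowest, 227 CPM against 489, 754 and 633 CPM. The same library had the lowest level in 8 members, such as *Adamts3*, *Mmp24* and *Adamts20*, and the lowest sum of the 7 neuron markers, 280 CPM against 993, 766 and 1531 CPM. Of these neuron markers 6 rose and 1 fell between the stages, and none was at 0. The part of these cells in the levels was not tested. The examples in this paragraph were picked after their values were seen, and with 4 NPC libraries no correlation was computed.

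**Figure D5:**
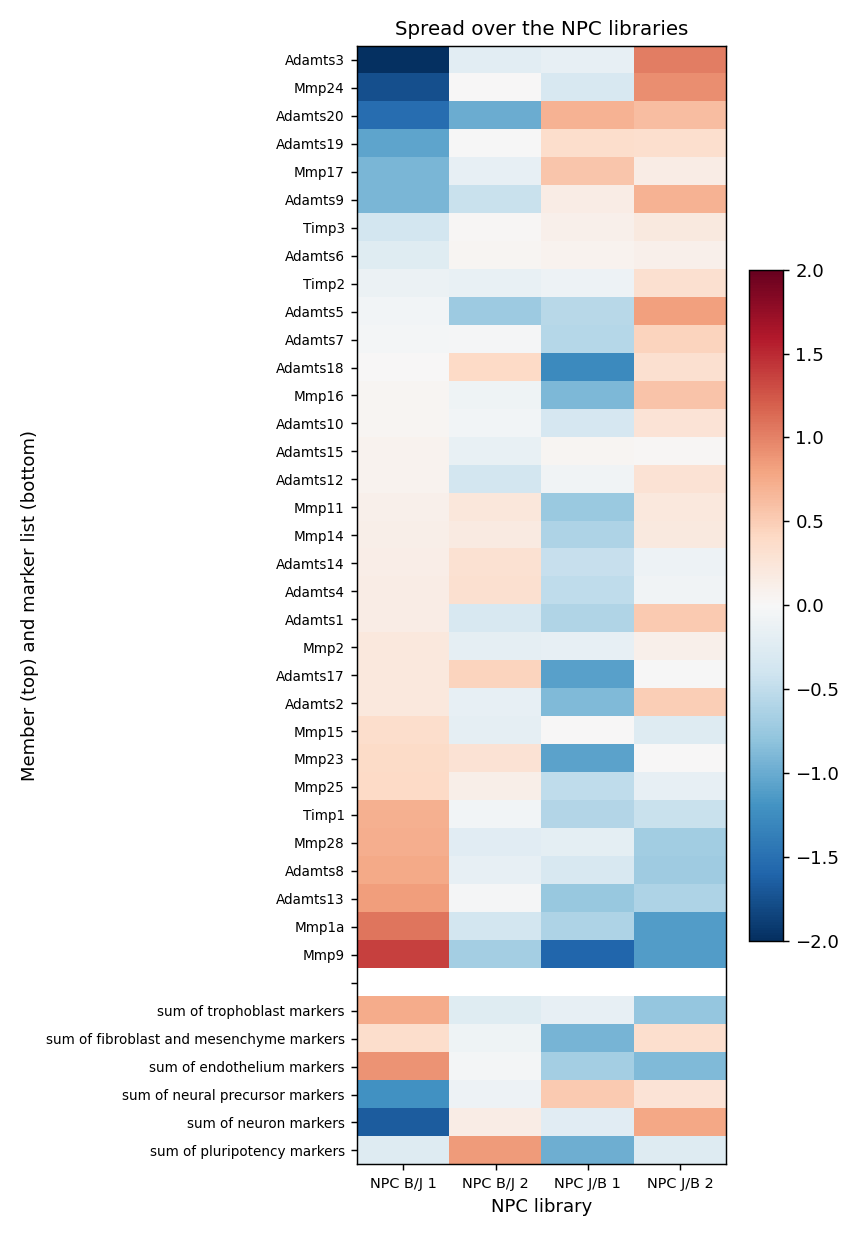
log2 of the level in each NPC library over the mean of the 4, for the 33 tested members with a mean of at least 1 CPM in NPCs (top, ordered by the first column) and for the summed levels of 6 marker lists (bottom). Red is above and blue below the mean, colours end at -2 and 2, and the B/J replicate 1 column runs from *Adamts3* (lowest) to *Mmp9* (highest) beside low neuron and high trophoblast sums.

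Most genes of the wider pathway were also higher in NPCs, where 37.5% of all genes were. Among 14 genes of protease activation and surface control, 12 were tested, 11 rose and 1, *Pcsk6*, fell. The largest changes were those of the plasminogen activators *Plat*, from 0.265 ± 0.108 to 36.8 ± 10.5 CPM (SD, n = 4 each, log2 fold change 7.15, edgeR adjusted p = 9.2e-06), and *Plau*, from 0.633 ± 0.479 to 16.7 ± 0.723 CPM (SD, n = 4 each, log2 fold change 4.69, edgeR adjusted p = 0.000268). Their precursor substrate *Plg* was near 0, with 2 counts in ESCs and 20 in NPCs. *Furin*, the convertase that removes the propeptide of MMP11, the membrane-type MMPs and most ADAMTS proteases, rose from 23.7 ± 8.86 to 140 ± 56.8 CPM (SD, n = 4 each), and *Reck*, a membrane-anchored inhibitor of MMPs, from 13.8 ± 3.71 to 28.4 ± 3.63 CPM (SD, n = 4 each). *Furin* and *Reck* were named after their values were seen.

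Among the 12 genes of the related ADAM family, which holds membrane sheddases and also members without protease activity, 10 were tested, 6 rose and 1 fell. Of the members without activity, *Adam11* and *Adam22* were among those that rose and *Adam23* was the one that fell. The largest changes were those of *Adam8* (log2 fold change 5.94) and *Adam12* (4.94). Among 12 genes of ADAMTS-like proteins, tolloids and procollagen processing, 11 were tested, 7 rose and 2 fell. The genes with the largest fitted changes here were the tolloid *Tll2* and *Pcolce2*, an enhancer of procollagen C-proteinase, which fell by 5.47 on the log2 scale. *Tll2* rose (edgeR adjusted p = 0.00187) to 0.399, 1.63, 1.82 and 4.1 CPM in NPCs, but its ESC level rests on 2 counts, both in J/B replicate 1, so no fold is given. Among 16 substrates, 15 were tested, 11 rose and 1, *Fn1*, which encodes fibronectin, fell. *Col3a1*, a fibrillar procollagen, and *Hapln1*, the link protein that ties proteoglycans to hyaluronan, had the largest fitted log2 fold changes, 8.61 and 7.87. The ESC level of *Col3a1* was 0, 0.941, 15.8 and 1.19 CPM, with J/B replicate 1 far above the other ESC libraries. *Col1a1*, *Col1a2* and *Col3a1* are also on the list of fibroblast and mesenchyme markers given above.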

How the data were processed

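RNA-seq libraries of polyadenylated RNA from ESCs and NPCs of the B/J and J/B lines were analysed, 2 per group. The authors deposited unnormalized read counts for each gene, made with TopHat2 on mm39 with the JF1 SNP positions masked, a refGene-based annotation and filtering by samtools. The submitters' processing notes name HTSeq, without a version, and whether strand was used in counting was not stated. Library kits (TruSeq Stranded or NEBNext Ultra II) and sequencers differed between libraries, and which library had which is not given, so their part was not tested. Entries for reads with no gene (5.76% to 10.9%) or an ambiguous gene (0.355% to 0.554%) were left out of library sizes.

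Counts were fitted in R 4.3.3 with edgeR 4.0.16 (TMM factors 0.820 to 1.208, filterByExpr with a minimum count of 10, robust quasi-likelihood test, 4 group means), and p-values were adjusted by Benjamini-Hochberg over 16399 genes with a threshold of 0.05. The script was tested on simulated data. Limma 3.58.1 and DESeq2 1.42.0 were alternatives, as were other scalings and filters, a replicate block and leaving out each library. The 81-base stretches, gene positions, exon lengths and overlaps came from GRCm39 with GENCODE vM39. Counting limits cover counting error only. The symbol rule for the members uses no measured value, but the choice of these gene families, the marker lists and the pathway lists were made with earlier results of these data known. Members shown with all 8 values were every *Timp* gene, the 10 largest rises and 10 largest falls that passed the test with a mean of at least 1 CPM (3 falls did), and the 5 highest levels per kb in each stage. In each pathway list, the 2 largest changes that passed were named.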

Additional observations from a re-analysis of the deposited data

Results flagged for a closer look

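In each stage, the 4 libraries of a tested member or of a family sum were checked for a single library lying far from the others, by the gap to its nearest neighbour over the range of the 4 (Dixon's criterion at the 95% level). Of 79 such groups 7 stood out, and chance alone marks about 1 in 20 groups. *Mmp14* was low in ESC J/B replicate 1, at 51.6 CPM, and in NPC J/B replicate 1, at 144 CPM. *Mmp9* was high in ESC J/B replicate 1, at 2.29 CPM, and in NPC B/J replicate 1, at 13.2 CPM. *Mmp28* was high in ESC J/B replicate 1, at 2.19 CPM. *Adamts13* was low in ESC B/J replicate 1, at 0.0868 CPM, and *Timp2* was high in NPC J/B replicate 2, at 71.1 CPM. ESC J/B replicate 1, which holds 3 of the 7 values, also had the highest fibroblast and mesenchyme marker sum of the ESC libraries, 86.8 CPM, and its part in these values was not tested.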

How the results depend on the processing

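Of the 37 tested members, 27 kept their call and direction in every alternative that tested them, and 34 kept their direction. The number that rose stayed between 25 and 30, and the number that fell was 2 under library totals, 2 under scaling to *Gapdh*, *Gusb* and *Tbp*, and 2 to 4 with a library left out. These scalings moved the median of all genes from a log2 fold change of 0.17 to 0.65 and 0.80, and the split of all genes called from 6145 higher and 5233 lower to 8016 and 3422, and to 8469 and 2824. Under library totals and under the scaling to the named genes, in that order, the log2 fold change reversed to 0.03 and 0.20 for *Adamts9*, to 0.38 and 0.54 for *Mmp17* and to 0.27 and 0.47 for *Mmp19*. It also reversed for *Mmp17* without ESC J/B replicate 1 (0.06) or NPC B/J replicate 1 (0.05), and for *Mmp19* without ESC J/B replicate 1 (0.61) or NPC J/B replicate 1 (0.08), with ranges of -0.32 to 0.06 and -0.78 to 0.61 over the libraries left out, and the cause was not tested. The NPC/ESC ratio of summed levels was 5.49 for *Mmp*, 7.26 for *Adamts* and 11.5 for *Timp* under library totals. Per kb of exon it was 6.25 for *Adamts* and 3.5 for *Timp*. Without the member of highest mean over the 8 libraries, it was 4.01 for *Adamts* (without *Adamts4*) and 3.81 for *Timp* (without *Timp3*). With a library left out it ranged from 3.73 to 4.24 for *Mmp*, 4.83 to 5.58 for *Adamts* and 7.75 to 8.92 for *Timp*. Members called within B/J numbered 20 to 27 with a library left out, lowest without ESC B/J replicate 1, and within J/B 20 to 27, lowest without NPC J/B replicate 2, against 28 and 26 with all libraries.

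Replicate numbers are shared by the groups, but same-numbered libraries deviated together within a stage (correlations 0.518 in ESCs and 0.587 in NPCs) and hardly across stages (0.049 to 0.091), so the numbers were not taken as pairs. With a replicate block, 29 members rose and 4 fell, with *Adamts6* and *Adamts19* gained (log2 fold change 1.37 and 1.41, edgeR adjusted p = 0.0143 and 0.0386). With a block within each stage, added after seeing the data, 28 rose and 5 fell, with *Adamts6* (2.13), *Adamts19* (2.17) and the fall of *Adamts9* (-0.93) gained and *Mmp1b* (1.93) lost, and the log2 fold change of *Mmp24* went from 1.85 to 0.85 (edgeR adjusted p = 0.04). Within B/J, 28 and 29 members were called with the blocks, and within J/B 27 and 28. Neither block gave a member call for the interaction or between the crosses. Depth limits the 9 members not tested, of which 6 had at most 2 counts in all.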

Other observations

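Marker lists not described above also moved between the stages, and their part in the levels of the protease genes was not tested. Of 7 endothelial markers 3 rose and 2 fell, with *Cdh5* at 406 CPM in NPCs against 0.166 CPM in ESCs and *Pecam1* at 13.4 CPM against 60.8 CPM. Of 7 endoderm markers 6 were tested, 5 rose and 1 fell, with sums of 11.7 to 12.6 CPM in ESCs and 16.1 to 69.4 CPM in NPCs. Of 7 muscle markers 6 were tested, 3 rose and 2 fell, and NPC J/B replicate 1 had the highest sum, 80.6 CPM. Of 6 glial markers 2 rose and 2 fell, and of 5 neural crest markers 1, *Tfap2b*, rose and 1, *Foxd3*, fell (edgeR).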
